A study of Homo sapiens with 2 samples.

Results

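The 10 genes described here act in protein folding in the endoplasmic reticulum (ER): HSPA5, HSP90B1, HYOU1, PDIA4, DNAJB9, DNAJC3, SDF2L1, XBP1, HERPUD1 and CALR. They were chosen by name, as ER chaperones and genes of the unfolded protein response, and each symbol was matched to 1 Ensembl gene identifier, giving 10 of the 57736 genes listed. Poly(A)+ RNA of wild type HEK293T cells was sequenced in 2 libraries. HEK293T cells derive from embryonic kidney and express the large T antigen of SV40. By the labels, all cells had been kept at 43 °C for 20 min and then returned to 37 °C for 6 h (the study's text gives a different heating time), and the replicates were lysed separately. Both libraries thus belong to 1 heat-shock group, and untreated cells were not analysed here, so no value below is a response to heat. With 2 libraries, errors and p-values measure only the spread between these samples, which may be technical, and counting intervals cover counting error only.

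Proteins that enter the ER are folded there by lumenal chaperones of the HSP70 and HSP90 families, by disulfide isomerases and by lectins that hold glycoproteins. When unfolded proteins build up, the sensors IRE1, PERK and ATF6 start the unfolded protein response (UPR), in which XBP1 and ATF6 bind promoter elements of chaperone and degradation genes and raise their transcription. The heat shock response of the cytosol is a separate program, driven mainly by HSF1.

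The best-known of these promoter elements is the ER stress response element (ERSE), CCAAT and CCACG separated by 9 bases, and a shorter relative is ERSE-II, ATTGG and CCACG separated by 1 base. To show what the 10 genes share in sequence, both were searched on both strands in RefSeq promoter windows (GRCh38.p14) of 250 bases before and 50 bases after the transcription start. All 10 genes had a window. A gene was counted if any of its windows held a match. An exact ERSE was present in 4 of 10 genes, against 0.0916% of all 27305 genes with a window (35116 windows). An exact ERSE-II was present in 3 of 10, against 0.0696% of genes with a window. Either of them was thus found in 7 of 10 genes, against 0.161% of all genes with a window. The ERSE was described on promoters of ER chaperone genes such as HSPA5, so these counts describe the set and are no independent evidence. The matches read as follows, 5′ to 3′ on the strand of the motif, with the fixed bases in capitals and the spacer in lower case.

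HSPA5 (ERSE, chr9:125241391-125241409, same strand as the gene): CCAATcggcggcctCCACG
HSP90B1, distal (ERSE, chr12:103930216-103930234, same strand as the gene): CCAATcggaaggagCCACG
HSP90B1, proximal (ERSE, chr12:103930321-103930339, opposite strand to the gene): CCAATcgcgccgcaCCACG
XBP1 (ERSE, chr22:28800603-28800621, same strand as the gene): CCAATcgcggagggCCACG
CALR (ERSE, chr19:12938384-12938402, opposite strand to the gene): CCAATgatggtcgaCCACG
HERPUD1 (ERSE-II, chr16:56932025-56932035, same strand as the gene): ATTGGgCCACG
HYOU1, distal (ERSE-II, chr11:119057380-119057390, opposite strand to the gene): ATTGGaCCACG
HYOU1, proximal (ERSE-II, chr11:119057274-119057284, opposite strand to the gene): ATTGGaCCACG
SDF2L1 (ERSE-II, chr22:21642114-21642124, opposite strand to the gene): ATTGGtCCACG

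The ERSE of HSPA5 lay at -66 to -48 and that of XBP1 at -52 to -34, both on the strand of the gene, counting the base before the start as -1. In HSP90B1, 1 ERSE lay at -194 to -176 on the strand of the gene and another at -89 to -71 on the opposite strand. The ERSE of CALR was farther away, at -225 to -207 on the opposite strand. In HYOU1 both ERSE-II matches, at -185 to -175 and -79 to -69, were on the opposite strand and had the same 11 bases. The distal one overlapped the only exact match to the XBP1-binding element UPRE (TGACGTGG) among the 10 genes, at -188 to -181. This motif was held by 0.927% of genes with a window. The ERSE-II of SDF2L1 lay at -188 to -178 and that of HERPUD1 at -117 to -107.

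The 250 bases before the start are given for HSPA5, the central chaperone of the ER lumen, and for HSP90B1 and HYOU1, the genes with 2 exact matches, on the strand of the gene, with the whole of each match in capitals.

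HSPA5 (GRCh38.p14, chr9:125241344-125241593, minus strand): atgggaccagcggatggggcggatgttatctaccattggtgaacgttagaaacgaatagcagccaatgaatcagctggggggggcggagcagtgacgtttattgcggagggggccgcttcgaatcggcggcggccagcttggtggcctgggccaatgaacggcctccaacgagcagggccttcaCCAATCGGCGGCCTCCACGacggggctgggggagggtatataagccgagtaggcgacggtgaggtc
HSP90B1 (GRCh38.p14, chr12:103930160-103930409, plus strand): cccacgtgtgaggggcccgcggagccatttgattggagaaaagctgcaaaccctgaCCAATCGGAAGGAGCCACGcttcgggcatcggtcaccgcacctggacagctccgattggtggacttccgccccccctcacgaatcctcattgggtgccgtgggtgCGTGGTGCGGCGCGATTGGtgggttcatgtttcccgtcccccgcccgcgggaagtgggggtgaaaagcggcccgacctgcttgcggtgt
HYOU1 (GRCh38.p14, chr11:119057206-119057455, minus strand): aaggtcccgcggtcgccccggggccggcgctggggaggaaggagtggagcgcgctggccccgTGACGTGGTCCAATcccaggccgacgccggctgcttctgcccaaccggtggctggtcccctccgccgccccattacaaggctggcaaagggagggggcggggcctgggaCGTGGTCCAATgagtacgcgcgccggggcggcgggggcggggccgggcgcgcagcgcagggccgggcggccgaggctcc

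No exact ERSE, ERSE-II or UPRE was found in the windows of PDIA4, DNAJB9 and DNAJC3, which says only that these letters are not in those windows. A CCAAT box on either strand was present in 10 of 10 genes, against 39.7% of genes with a window. The heat shock element GAANNTTCNNGAA, the target of HSF1, was found in 0 of 10 genes and in 0.608% of genes with a window. When 1 mismatch was allowed in the ERSE, 8 of 10 genes and 1.89% of genes with a window held a match. This search was chosen after the sequences had been read. Of the other genes of ER folding and degradation described further on, 78 had a window. An exact ERSE or ERSE-II was present in 4 of these (5.13%), namely CANX, CRELD2, ERO1B and PDIA6, against 0.161% of all genes with a window.

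**Figure D1:**
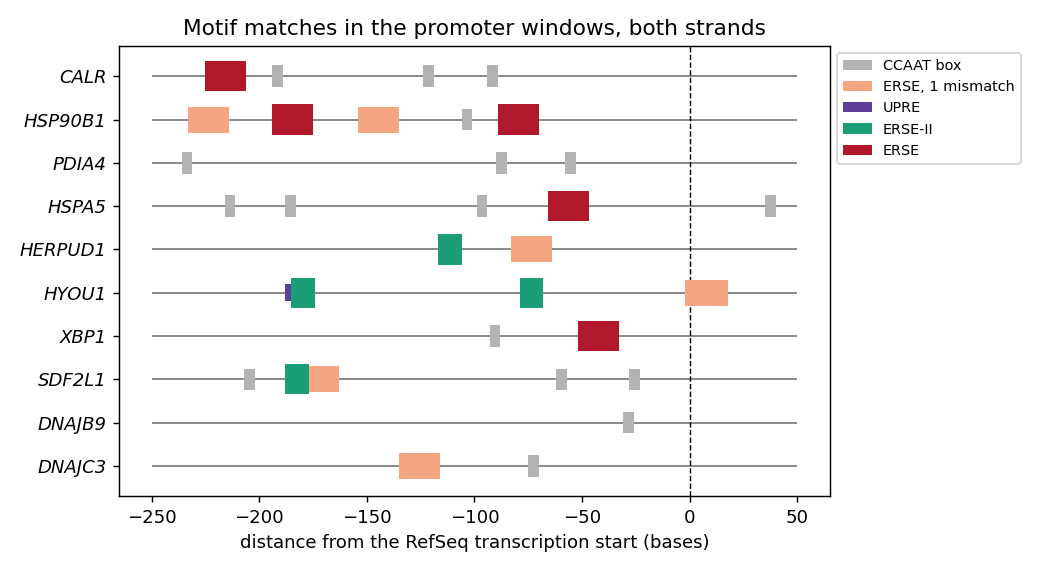
Motif matches in the promoter windows of the 10 genes, with genes on the vertical axis in order of RNA level and distance from the RefSeq transcription start, in bases, on the horizontal axis. Boxes are matches on either strand, and for XBP1 and PDIA4 1 of 2 windows is drawn; ERSE boxes appear in CALR, HSP90B1, HSPA5 and XBP1, and ERSE-II boxes in HERPUD1, HYOU1 and SDF2L1.

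The libraries held 22529828 and 26890199 expected counts, that is, reads assigned to genes with multi-mapped reads shared among them. The 10 genes took 62327 and 74105 of these. Of 12 marker genes matched, those of the HEK293 line were present, VIM at a mean of 647 TPM (transcript abundance scaled to length and to a fixed total in each library), KRT18 at 52.6, NEFM at 50.8, KRT8 at 12.4 and PAX2 at 7.35. PTPRC, INS and MYH6, which mark blood, beta and heart muscle cells, had 0 counts in both libraries, while CD68 stood at 1.47 TPM and COL1A1, a fibroblast collagen, at 22.5, and HBB and ALB reached at most 0.12 and 0.32 TPM. Whether cells of another type held any of these transcripts was not tested. In bulk RNA, fewer cells that express a gene and less RNA per cell cannot be told apart.

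All 10 genes were detected, with 1 TPM or more in each library, as were 26.3% of listed genes. They spanned a 60.2-fold range of mean TPM, from CALR to DNAJC3. The range was 158-fold in counts per library total, which are not scaled to length, and 199.98-fold at the canonical transcript lengths described further on, with DNAJB9 lowest in both. Their summed TPM was 0.158% of the total in replicate 1 and 0.163% in replicate 2 (mean 0.161% ± 0.0041, SD, n = 2). CALR, HSP90B1 and PDIA4 together made up 75.6% of that sum. Among the 15188 detected genes, 8 of the 10 lay above the median level and 2, DNAJB9 and DNAJC3, below it.

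The lectin chaperone CALR (calreticulin, ENSG00000179218, chromosome 19, 13049392 to 13055303, plus strand; all gene positions are GRCh37) binds calcium and newly made glycoproteins. It had 676.7 TPM in replicate 1 and 624.6 in replicate 2, from 22388 and 23352 expected counts (mean 650.6 ± 36.8 TPM, SD, n = 2). It was the highest of the 10 in both libraries and ranked 158 among detected genes. Its membrane-bound relative CANX, calnexin, had 732 and 819.6 TPM, above CALR in both libraries. In expected counts, which are not scaled to length, CANX (16084 and 20748) lay below CALR in both.

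HSP90B1 (GRP94, ENSG00000166598, chromosome 12, 104323885 to 104347709, plus strand) is the HSP90 of the ER lumen. It had 268.9 and 379.5 TPM from 9823 and 16471 expected counts (mean 324.2 ± 78.2 TPM). Its spread was the widest of the 10 genes, an SD of 24.1% of the mean.

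PDIA4 (ERp72, ENSG00000155660, chromosome 7, 148700154 to 148725754, minus strand) is a protein disulfide isomerase. It had 243.5 and 233.5 TPM from 12632 and 13731 expected counts (mean 238.5 ± 7.12 TPM). The TPM ranges of PDIA4 and HSP90B1 did not overlap, although 268.9 TPM of HSP90B1 in replicate 1 lay close to 243.5 TPM of PDIA4 in the same library.

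HSPA5 (BiP, GRP78, ENSG00000044574, chromosome 9, 127997132 to 128003661, minus strand) is the HSP70 of the ER lumen and also holds the UPR sensors inactive. It had 107.3 and 116.2 TPM from 7557 and 9307 expected counts (mean 111.8 ± 6.24 TPM). CALR stood 5.84 ± 0.656 times, HSP90B1 2.89 ± 0.539 times and PDIA4 2.14 ± 0.183 times above HSPA5 in TPM (mean ± SD of the ratio in each library, n = 2). HSPA5 was thus not the most abundant ER chaperone transcript of these cells on a scale per length.

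HYOU1 (ORP150, GRP170, ENSG00000149428, chromosome 11, 118914899 to 118927938, minus strand) is a large HSP70 relative that exchanges the nucleotide on HSPA5. It had 85.2 and 80.1 TPM from 6326 and 6927 expected counts (mean 82.6 ± 3.63 TPM), or 0.742 ± 0.0739 of the level of HSPA5.

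DNAJB9 (ERdj4, ENSG00000128590, chromosome 7, 108210311 to 108215294, plus strand), DNAJC3 (p58IPK, ENSG00000102580, chromosome 13, 96329393 to 96447242, plus strand) and SDF2L1 (ENSG00000128228, chromosome 22, 21996591 to 21998588, plus strand) work with HSPA5. The first 2 carry J domains, which make HSP70 proteins hydrolyse ATP, and SDF2L1 forms a complex with such an ER J protein. SDF2L1 had 22.0 and 16.8 TPM from 327 and 284 expected counts (mean 19.4 ± 3.69 TPM). DNAJB9 had 10.2 and 12.7 TPM from 118 and 177 expected counts (mean 11.4 ± 1.74 TPM). DNAJC3 had 9.29 and 12.3 TPM from 492 and 758 expected counts (mean 10.8 ± 2.16 TPM). SDF2L1, DNAJB9 and DNAJC3 were the lowest of the 10 by mean TPM, at 0.175, 0.102 and 0.0964 of the level of HSPA5.

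XBP1 (ENSG00000100219, chromosome 22, 29190543 to 29196585, minus strand) encodes a transcription factor whose active form is made after IRE1 cuts a short intron from its mRNA. It had 57.6 and 59.6 TPM from 1534 and 1789 expected counts (mean 58.6 ± 1.39 TPM). A gene count adds the spliced and the unspliced form, so these values say nothing of how much of the mRNA was cut.

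HERPUD1 (ENSG00000051108, chromosome 16, 56966054 to 56978776, plus strand) encodes a membrane protein of ER-associated degradation (ERAD), the route by which misfolded proteins are sent to the proteasome. It had 96.0 and 99.5 TPM from 1130 and 1309 expected counts (mean 97.7 ± 2.48 TPM). The spread of XBP1 and HERPUD1 was small, with an SD of 2.36% and 2.54% of the mean.

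**Figure D2:**
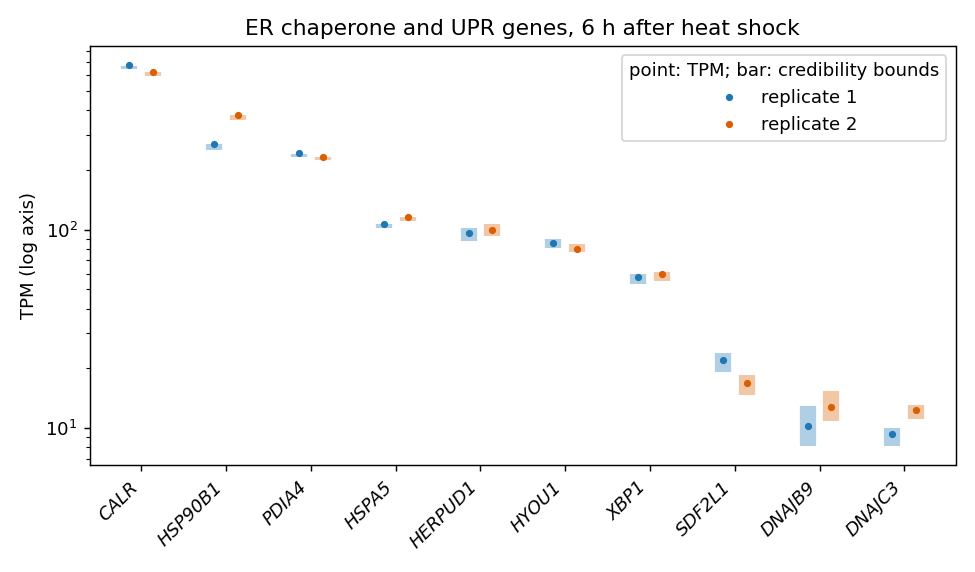
TPM of the 10 genes in each library on a log axis, with genes on the horizontal axis in order of mean level; points are the deposited TPM of replicate 1 (blue) and replicate 2 (orange) and shaded bars the deposited credibility bounds. CALR lies highest in both libraries, at 676.7 and 624.6 TPM, and DNAJB9 and DNAJC3 lie between 9.29 and 12.7.

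Ordered by mean TPM, the genes ran CALR, HSP90B1, PDIA4, HSPA5, HERPUD1, HYOU1, XBP1, SDF2L1, DNAJB9 and DNAJC3. The ranges of the 2 libraries did not overlap for 8 of the 9 neighbouring pairs. DNAJB9 and DNAJC3 overlapped and did not differ beyond their spread. The order of HERPUD1, DNAJB9 and DNAJC3, and that of HSP90B1 and PDIA4, rested on the transcript length used. The deposited length, an average over the isoforms as quantified, was 688 bases for HERPUD1 and 701 bases for DNAJB9, while their Ensembl canonical transcripts have 2853 and 2409 bases. For DNAJC3 the deposited length was 2979 bases and the canonical one 5590.

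At canonical length, an alternative chosen after seeing the data, HERPUD1 came to 22.3 ± 0.278 TPM, DNAJB9 to 3.17 ± 0.61 and DNAJC3 to 5.73 ± 1.22. HERPUD1 then fell from rank 5 to rank 7, where it overlapped SDF2L1 at 20.3 ± 3.86 TPM, and DNAJC3 stood above DNAJB9. HSP90B1 at 243.6 ± 65.9 TPM then lay below PDIA4 at 249.0 ± 8.10 by mean, with overlapping ranges. The mean of PDIA4 was also the higher in counts per library total, again with overlapping ranges. CALR and HSPA5 kept their ranks, with 634.8 and 111.4 TPM, and HYOU1 and XBP1, with 74.8 and 48.9 TPM, each moved up 1 rank.

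**Figure D3:**
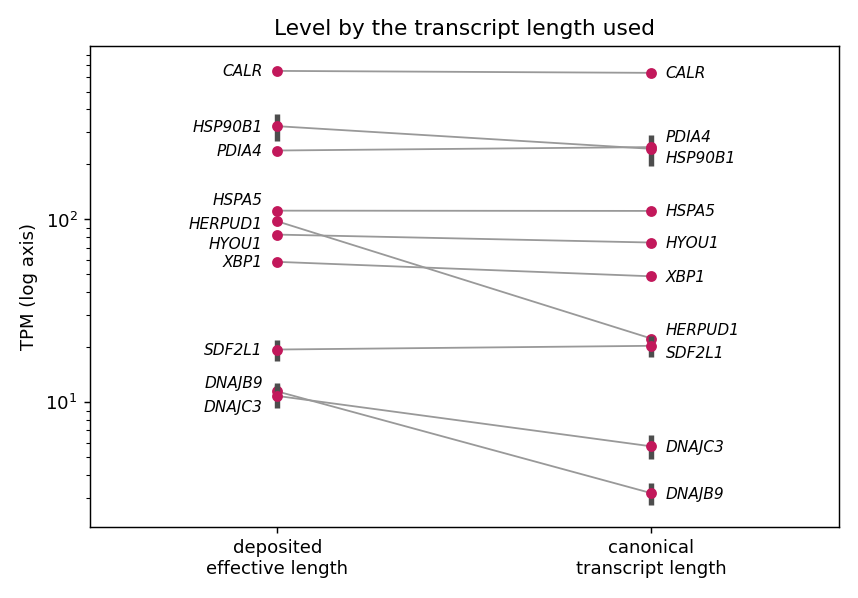
Mean TPM of the 10 genes (log axis) at the deposited effective length, left, and at the Ensembl canonical transcript length, right; points are means and dark bars join the 2 library values. The line of HERPUD1 drops from 97.7 to 22.3 TPM and that of DNAJB9 from 11.4 to 3.17, while CALR, PDIA4 and HSPA5 stay nearly level.

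The deposited estimates assigned the reads of these genes with little uncertainty. The posterior SD of the count was at most 0.897% of the count, and it was 0 in both libraries for 4 genes. Of the 50-base words in the transcripts, 7.59% were shared with another gene for HSP90B1, 7.44% for HYOU1, 7.07% for CALR and 5.47% for HSPA5, and at most 0.293% for the other genes. For HSPA5 the sharing was mainly with processed pseudogenes such as HSPA5P1, which received 1.31 and 2.64 expected counts. For HYOU1 and CALR it was mainly with antisense lncRNAs, both at 0 counts, and for HSP90B1 with UQCC6 on the opposite strand, which had 221 and 239 counts. The posterior SD of the count was the same for HYOU1 and its antisense lncRNA, 14.52 and 4.55 in the 2 libraries. It was also the same for CALR and its antisense lncRNA, 0.49 and 0.52. Whether counting used strand is not stated in the sources read and was not tested, so reads from the sequence that such pairs share cannot be told apart.

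To see how far the libraries differed beyond counting noise, the rounded expected counts of each gene were compared by an exact two-sided binomial test with the libraries scaled by TMM, and adjusted by Benjamini-Hochberg (BH) over 19714 genes. The test compares these 2 libraries, not conditions. Of the 10 genes, 6 passed the threshold of 0.05, against 43.1% of all genes tested. Among the 11580 genes at least as deeply counted as DNAJB9, the shallowest of the 10, 63.3% passed, so the share among the 10 was near that of other genes of such depth.

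Higher in replicate 2 were 2 of the 10 genes (20.9% of all tested), HSP90B1 and DNAJC3. HSP90B1 differed by 0.44 ± 0.018 on the log2 scale (counting SE; BH-adjusted p = 3.67e-128, exact binomial test). DNAJC3 differed by 0.32 ± 0.084 (BH-adjusted p = 0.00045, exact binomial test). Higher in replicate 1 were 4 genes (22.2% of all tested). CALR differed by -0.24 ± 0.013 (BH-adjusted p = 1.15e-70, exact binomial test), PDIA4 by -0.18 ± 0.018 (1.00e-23) and HYOU1 by -0.17 ± 0.025 (4.51e-11). SDF2L1 had the largest ratio of the 10, -0.51 ± 0.12, on far fewer counts (BH-adjusted p = 6.48e-05, exact binomial test).

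The other 4 genes did not pass. HSPA5 had a log2 ratio of -0.0035 ± 0.022 (BH-adjusted p = 0.945, exact binomial test), and its sign turned with the scaling, to 0.045 with library totals. HERPUD1 had -0.09 ± 0.059 (p = 0.219), XBP1 -0.08 ± 0.05 (p = 0.194) and DNAJB9 0.28 ± 0.17 (p = 0.189), all BH-adjusted values of the exact binomial test. HSPA5, the HSP70 of the lumen, was thus the gene whose counts lay closest together in the libraries at the TMM scaling.

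Over the 10 genes the log2 ratio had a median of -0.09, against -0.0014 over all genes tested, and the median size was 0.21, against 0.23 for genes at least as deep as the shallowest of them. By the deposited credibility bounds of TPM, 6 of the 10 genes were apart between the libraries, against 27.5% of detected genes. Of the 92 detected genes of the list described further on, 40 were apart. No share among genes of like depth was taken for the bounds. The 6 genes apart were CALR, HSP90B1, PDIA4, SDF2L1, DNAJC3 and HSPA5. HSPA5 was apart here (101.7 to 106.4 and 110.6 to 115.2 TPM) though its scaled counts were nearly equal, and HYOU1 was not (80.9 to 89.6 and 77.4 to 84.1 TPM). By the deposited bounds of FPKM the count was again 6, but HSPA5 overlapped (84.2 to 88.1 and 87.3 to 90.9 FPKM) and HYOU1 was apart (67.1 to 74.3 and 61.1 to 66.4 FPKM). For CALR, PDIA4 and HSPA5, 3 of the 6 genes apart by TPM bounds, the deposited TPM itself lay above its own upper bound in both libraries. Of all detected genes, 5.62% in replicate 1 and 4.44% in replicate 2 had a TPM outside the bounds.

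The ratio between the libraries moved with GC content over all genes. Among the 10 genes, those of low GC had ratios above 0 and those of high GC ratios below 0, without a strict order within either end. When genes were put into 10 classes of equal size by GC content, the median log2 ratio was 0.65 in the lowest class and -0.28 in the highest. The genes higher in replicate 2 had low GC, 41.3% for HSP90B1 and 40.3% for DNAJC3, and DNAJB9 had 40.0%. Those higher in replicate 1 had 52.5% (PDIA4), 54.8% (CALR), 55.7% (HYOU1) and 65.8% (SDF2L1). HSPA5 at 45.6%, XBP1 at 47.8% and HERPUD1 at 48.0% lay between. The part of GC content in these differences was examined only by removing the trend.

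With the GC trend removed, 2 of the 10 genes passed, against 26.8% of all genes tested. HSP90B1 then differed by 0.14 (BH-adjusted p = 2.09e-12, exact binomial test) and CALR by -0.06 (BH-adjusted p = 4.82e-05, exact binomial test). The ratios of HYOU1, DNAJB9 and DNAJC3 changed sign to 0.048, -0.18 and -0.10, and none of the 3 passed. SDF2L1 went from -0.51 to -0.22 and PDIA4 from -0.18 to -0.03, and neither passed any longer (BH-adjusted p = 0.171 and 0.147, exact binomial test). The exact test of edgeR, run with a biological variation between replicates set at 0.1, called 0 of the 10 genes, against 7.24% of all genes tested, and 2 of the 10 had an unadjusted p under 0.05.

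**Figure D4:**
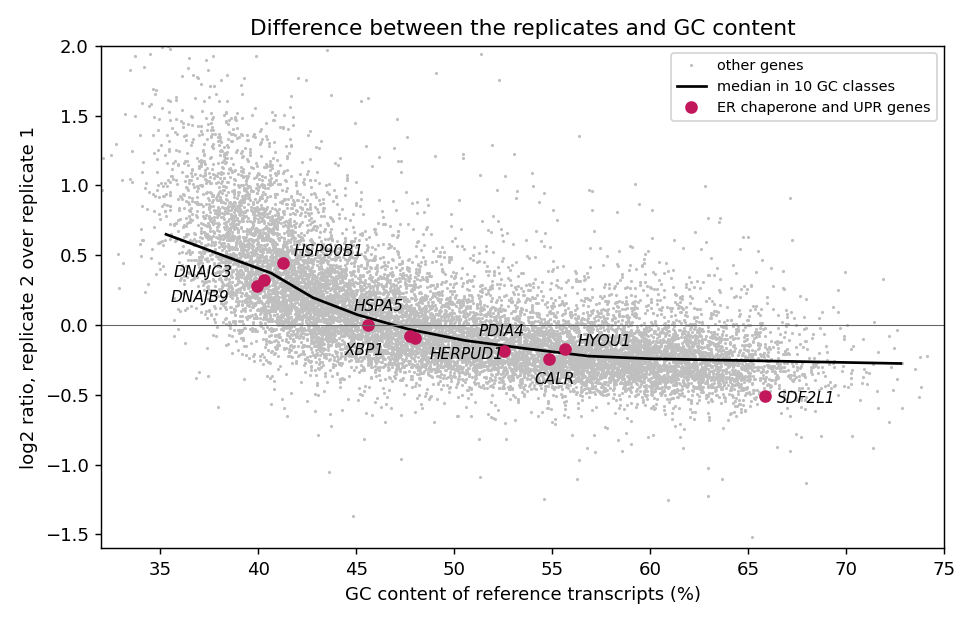
Log2 ratio of replicate 2 over replicate 1 (TMM-scaled expected counts, vertical axis) against GC content of reference transcripts in percent (horizontal axis) for 13544 genes whose counts summed to 100 or more, of which 26 lie beyond the axes; the line joins medians of 10 GC classes. The 10 labelled genes run from HSP90B1, DNAJC3 and DNAJB9 at low GC and ratios above 0 to SDF2L1 at 65.8% GC and -0.51.

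Besides the 10 genes, a list of 93 other genes of ER folding, UPR signalling and ERAD was examined. Of these, 92 were detected, and the exception was ERN2, an IRE1 paralog of mucosal epithelia, with 0.08 and 0.20 TPM. Between the libraries 62 of 92 passed the exact binomial test, against 43.1% of all genes tested and 63.3% of those at least as deeply counted as DNAJB9, 24 higher in replicate 2 and 38 higher in replicate 1. They included 14 of 18 disulfide and proline isomerases, 10 of 12 lumenal chaperones and cochaperones, 8 of 11 transcription factors and regulators and 12 of 21 ERAD genes. The smaller counts were 7 of 14 translocon and signal peptidase genes, 5 of 7 quality-control lectin genes, 4 of 6 sensors and proteases and 2 of 3 KDEL receptors. With the GC trend removed 46 of the list passed, 13 higher in replicate 2 and 33 in replicate 1. Of all genes tested 26.8% passed there, 2570 higher in replicate 2 and 2529 in replicate 1. No share among genes of like depth was taken with the trend removed. The lumenal chaperones then fell to 4 of 12, the sensors to 1 of 6, the isomerases to 10 of 18 and the ERAD genes to 8 of 21. Transcription factors and regulators went to 7 of 11. Translocon and signal peptidase genes rose to 9 of 14, while the lectin genes stayed at 5 of 7 and the KDEL receptors at 2 of 3. At the deposited lengths the 10 genes had a median of 90.2 TPM, and the list 39.1. At canonical length the genes of rank 5 and 6 among the 10, HYOU1 and XBP1, had 74.8 and 48.9 TPM.

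Among the disulfide and proline isomerases, P4HB reached 1060 ± 96.4 TPM, above PDIA4 in both libraries. In expected counts, which are not scaled to length, P4HB (12562 and 12459) lay below PDIA4 (12632 and 13731). PDIA3, the partner of CALR and CANX, had 256.2 ± 1.97 TPM and FKBP10 202.4 ± 11.9. Of the glycoprotein quality-control genes, CANX had 775.8 ± 62 TPM and the glucosidase subunits PRKCSH and GANAB 334.1 ± 38 and 168.3 ± 11.5. The other lumenal chaperones and cochaperones were led by CNPY2 (177.1 ± 4.89 TPM), SEC63 (159.3 ± 44.1) and MANF (131.3 ± 3.73), all above HSPA5 in TPM. In expected counts all lay below the 7557 and 9307 of HSPA5. CNPY2 had 1887 and 2100, SEC63 2960 and 5110, and MANF 2395 and 2621. The levels of the list at canonical length were not examined. SEC63 is a J protein of the translocon that, like DNAJB9 and DNAJC3, works with HSPA5, and its level exceeded theirs in both libraries.

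Of the UPR sensors and their proteases, ATF6B had 115.2 ± 13 TPM, MBTPS1, the protease that cuts ATF6, 63.6 ± 0.205, and EIF2AK3, which encodes PERK, 19.9 ± 1.94. Of the UPR transcription factors and regulators, ATF4 stood at 1044 ± 87.7 TPM, far above XBP1, followed by NFYC, a subunit of the CCAAT-binding factor, at 76.8 ± 6.43 and CREB3L2 at 41.9 ± 5.19. The KDEL receptors, which return lumenal chaperones such as HSPA5, HSP90B1 and CALR from the Golgi, had 320.7 ± 25.6 (KDELR1), 80.6 ± 3.3 (KDELR2) and 22.6 ± 2.86 TPM (KDELR3).

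ERAD genes, the neighbours of HERPUD1 in function, were led by UBE2G2 (185.5 ± 11.6 TPM), UFD1 (114.5 ± 0.41) and VCP (112.3 ± 6.89), all above HERPUD1. At the translocon and signal peptidase, SSR2 had 203.7 ± 9.51, SSR4 185.4 ± 23.3 and SPCS1 169.1 ± 11.6 TPM. Among genes of the list whose counts summed to 100 or more, the largest ratios between the libraries were those of SEC62, UGGT2 and EDEM3, with log2 ratios of 1.16, 1.03 and 1.02, all higher in replicate 2 and of GC content below that of any of the 10 genes (38.3%, 37.5% and 38.4%).

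**Figure D5:**
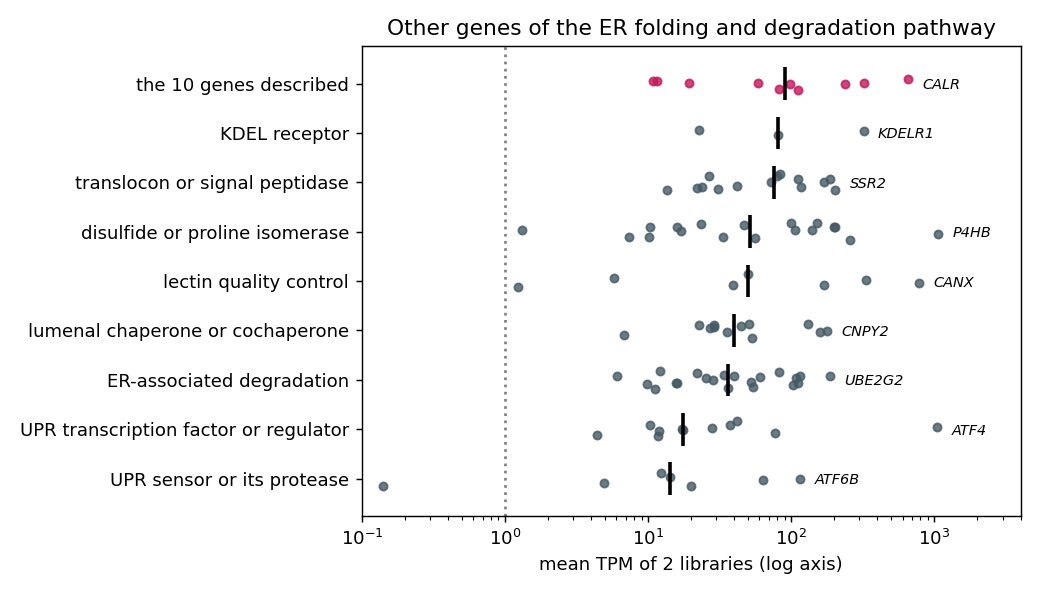
Mean TPM of 2 libraries (log axis, horizontal) of the 10 genes and of 93 other genes of ER folding, UPR signalling and ERAD in 8 groups (vertical axis); points are genes, thick bars are group medians, the dotted line marks 1 TPM and the highest gene of each group is named. At the deposited lengths the 10 genes have the highest median, 90.2 TPM, and ERN2 is the only gene left of the dotted line.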

How the data were processed

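Libraries of poly(A)+ RNA from 2 separately lysed replicates of heat-shocked HEK293T cells were sequenced by the authors with 50 bp reads. The labels give the molecule as genomic DNA, although their protocol describes RNA. The submitters' processing notes name Trimmomatic 0.36, STAR 2.6.1c, RSEM 1.3.1 and the builds hg19 and GRCh37.p13, whereas the study's methods name featureCounts. The deposited columns are those RSEM writes: expected counts (multi-mapped reads shared by the authors' quantifier), TPM and FPKM values as the authors scaled them to effective length and depth, and posterior SDs, lengths and credibility bounds. The authors' pooled TPM lay between the libraries for 10 of 10 genes.

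Positions and GC content came from GENCODE v44lift37 (GRCh37), which matched 55501 of 57736 identifiers (96.1%). Of 15 marker symbols 12 were matched. Promoter sequences came from RefSeq (GRCh38.p14).

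Counts were rounded and compared by an exact two-sided binomial test with TMM factors of edgeR 4.0.16, a pseudocount of 0.5 for ratios, and Benjamini-Hochberg adjustment over all genes whose counts summed to 10 or more (Python 3.11.15, scipy 1.17.1). TMM factors were first taken over all listed genes. After those results had been seen they were taken over the genes tested, which moved the number of genes called from 8314 to 8498. DESeq2 1.42.0 gave alternative size factors. The GC trend was the median ratio in 50 GC classes. The quasi-likelihood test of edgeR could not be run on 1 library a side.

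The members and lists were chosen with earlier results of these data known. All 10 genes are named, and from the 93 others the 3 of highest mean TPM in each group, the 3 of largest ratio among those summing to 100 counts or more and any not detected; promoter matches in up to 5 genes were named after they were seen. The motifs, the 1-mismatch search, the canonical lengths and the comparison with genes of like depth were chosen with the data in view.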

Additional observations from a re-analysis of the deposited data

How the results depend on the processing

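All 10 genes stayed detected at every threshold tried (TPM of at least 0.1, 1 or 5, FPKM of at least 1) and in each library alone. The number of the 10 called between the libraries moved from 6 to 2 with the GC trend removed, where 26.8% of all genes tested were called. It moved to 0 by the edgeR exact test with an assumed coefficient of variation of 0.1. That test called 5 of 92 pathway genes in place of 62, and 7.24% of all genes tested in place of 43.1%. With TMM factors over all listed genes, the first setting run, 6 of the 10 and 62 pathway genes were called, and 4355 of 8314 genes called were higher in replicate 2, against 4120 of 8498. The log2 ratio of HSPA5 turned to 0.019 under that setting, 0.045 with library totals and 0.0068 with DESeq2 size factors. The ratios of HYOU1, DNAJB9 and DNAJC3 turned to 0.048, -0.18 and -0.10 with the GC trend removed, and PDIA4 and SDF2L1 lost their calls there (-0.03 and -0.22). The summed share of the 10 genes was 0.276% of expected counts and 0.199% of TPM without nuclear copies of mitochondrial genes. It was 0.158% without replicate 2 and 0.163% without replicate 1. No paired analysis was possible because both libraries belong to 1 group. The cause of these shifts was not tested beyond the settings themselves. Depth limits DNAJB9 most, whose credibility bounds were 23.3% and 17.4% of the level to each side.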
